A study of Mus musculus with 8 samples.

Results

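Peaks from a second assay were compared between mouse embryonic stem cells (mESC) grown without folic acid and with it. All 23089 rows of the deposited stem cell table were used, and each row is 1 peak in 1 gene, called an entry here. The table holds 20961 distinct peaks in 9217 genes, of which 9196 are protein-coding in the GENCODE M21 annotation. Values in both libraries were given for 23040 entries, and the other 49 could not be compared. Most peaks, 19429, belonged to 1 gene, and 1532 were listed under several overlapping genes.

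Both groups were Sv129 mESC, each with 1 library out of 8 samples in the series. The cells were split from a common stock, grown on gelatin in medium with serum and leukemia inhibitory factor, and passaged every few days. The FA0 group had folate-free medium, and the FA4 group had the same medium with folic acid added to 4 mg/L. Serum was present in both. How long the cells stayed on each medium is not given in the sources used here. Ribosomal RNA was removed before the RNA libraries were made, although the labels list the molecule as genomic DNA. With 1 library in each group there is no replicate error, so ratios are given without p-values and describe these libraries only.

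Folate carries one-carbon units. Cells use these units to make purines and thymidylate and to regenerate methionine, the source of the methyl groups placed on DNA, RNA and histones. Embryonic stem cells divide fast and hold a pluripotent state through factors such as Oct4 (encoded by Pou5f1), Sox2 and Nanog. The labels do not name the assay that gave the peaks, so the mark or protein they stand for cannot be named.

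The RNA levels matched the labelled cell type. Of 10 stem cell markers, 9 were in the table, at 15.1 to 456 FPKM (fragments scaled to transcript length and library size) in FA4 and 21.7 to 434 FPKM in FA0. Of 8 feeder fibroblast markers 2 were listed, and they summed to 4.61 FPKM in FA4 and 3.90 FPKM in FA0. Otx2, a primed epiblast factor, stood at 41.1 FPKM in FA4 and 28.8 FPKM in FA0. The table lists only genes with a peak, so an unlisted marker is not shown to be absent. Counts over the listed genes summed to 3901966 in FA4 and 5247130 in FA0, and FA0 had 1.33 times the depth of FA4 by the ratio of counts to FPKM over 7269 genes.

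Peaks differed widely between the libraries while RNA levels did not. Each peak has a log2 fold in each library, which is the authors' value, and what it is relative to is not stated in those sources. The columns headed as control were read as FA4 and those headed as case as FA0, after the group names in the labels. All peak values here come from the authors' deposited table. The median log2 fold over all entries was 4.51 in FA4 and 3.81 in FA0. The median difference, FA0 minus FA4, was -0.76. At least 2-fold higher in FA0, called higher from here on, were 4939 entries, 21.4% of all (95% exact binomial interval 20.9 to 21.97). At least 2-fold lower were 9815 entries, 42.6% (42.0 to 43.2). These intervals cover counting error only, and peaks of 1 gene are not independent. Centring the differences on their median moved every value up by 0.76 and turned the balance to 6891 higher (29.9%) and 4155 lower (18.0%).

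Large differences lay mostly on 1 side. A rise of at least 16-fold was seen in 1881 entries (8.16%) and a fall of that size in 261 (1.13%). In FA4 the log2 fold was below 0 in 2117 entries, against 25 in FA0. The spread across peaks was also wider in FA4, with an SD of 3.17 against 1.66 in FA0.

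The direction followed the numbers the authors gave the peaks. Peak numbers ran over the genome in chromosome and gene order from 1 to 10702, and then started over and ran through it again from 10703 to 20961. None of 19385 neighbouring pairs broke the gene order within these series. In the first series the median difference was -1.36, with 1.40% of 11830 entries higher and 68.3% lower. In the second series the median difference was 0.58, with 42.6% of 11210 entries higher and 15.5% lower. All but 15 of the rises of at least 16-fold, 1866 of 1881, belonged to the second series. Across peaks, the log2 folds of FA0 and FA4 had a Pearson correlation of 0.84 in the first series and 0.43 in the second, over values that share genes and libraries. The sources used here do not say how peaks were called and joined, and the part of that step in the directions was not tested.

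**Figure D1:**
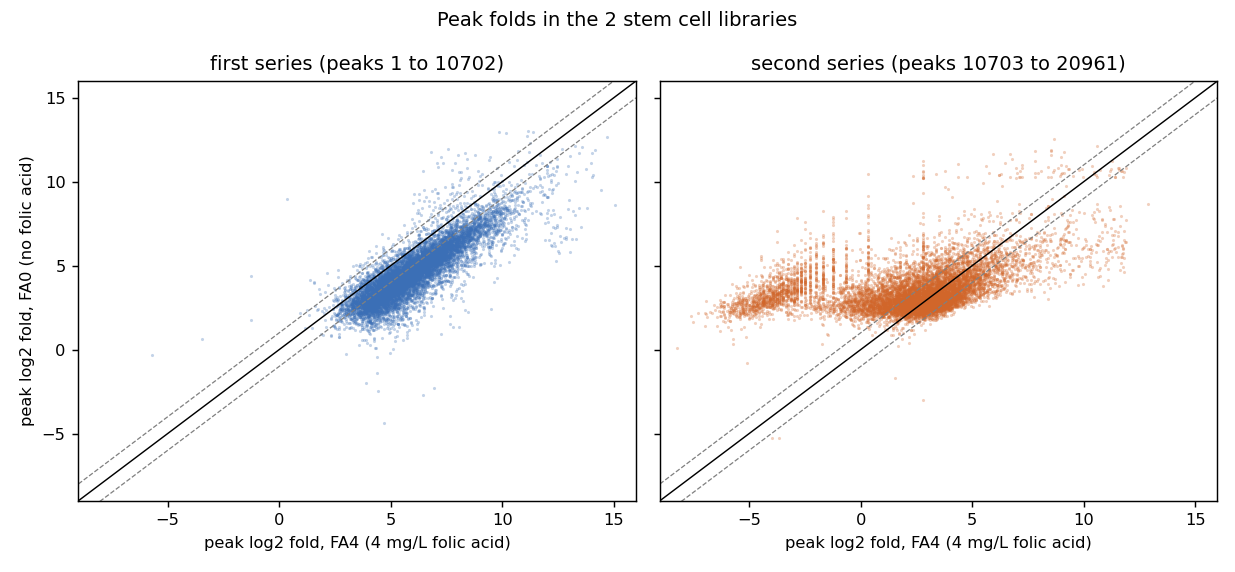
Each point is 1 distinct peak, with its log2 fold in FA4 on the horizontal axis and in FA0 on the vertical axis, for the first series of peak numbers on the left and the second on the right. The solid line marks equal values and the dashed lines a 2-fold difference. Points of the first series lie mostly under the lower dashed line, and of 10250 points of the second series 1962 have FA4 values below 0, a smaller cloud to the left of the rest.

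The same split was seen inside genes. Among 3106 genes with unshared peaks in both series, 2813 (90.6%) had the higher median difference in the second series. The median gap within a gene was 1.98 on the log2 scale. The change was a step at the restart and not a drift along the numbers. Of 4796 genes with at least 2 unshared peaks, 1492 (31.1%) held such peaks of both directions. Only lower ones were held by 2076 (43.3%), only higher ones by 885 (18.5%) and neither by 343. A gene therefore could not be given 1 direction from its peaks in 31.1% of these cases.

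**Figure D2:**
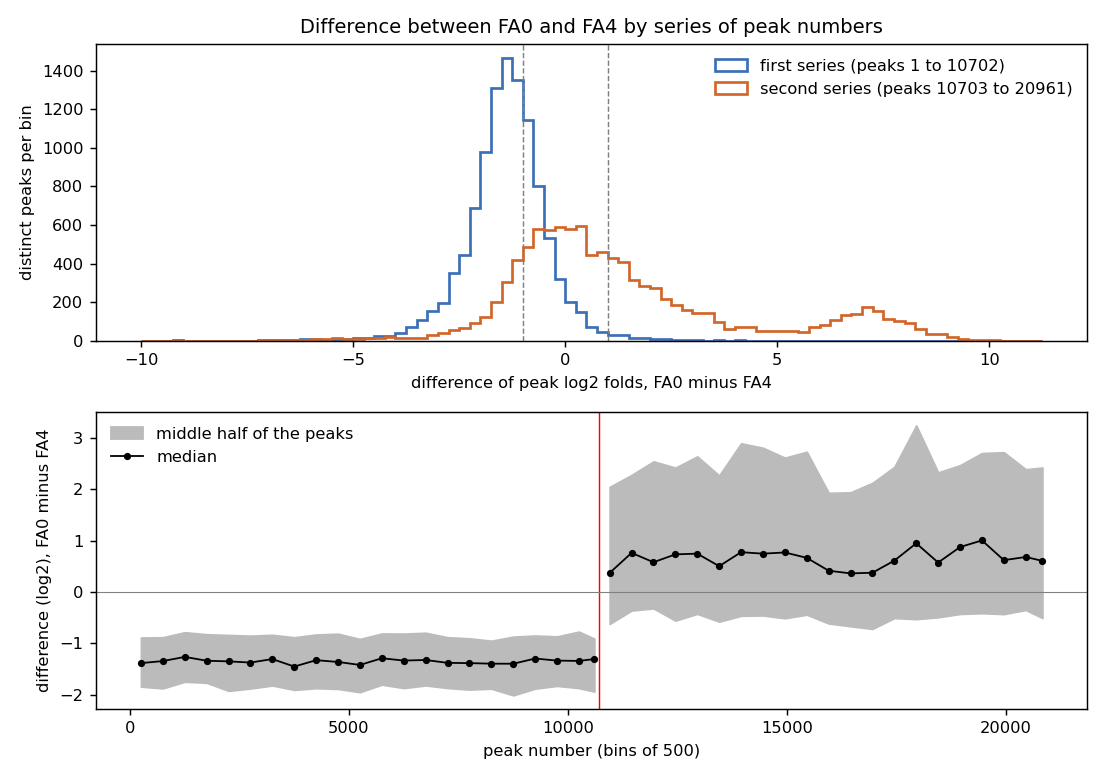
The upper plot counts distinct peaks by the difference of log2 folds, FA0 minus FA4, for each series of peak numbers, with dashed lines at a 2-fold difference. The lower plot gives the median (points) and the middle 50% (grey) of the difference in bins of 500 peak numbers, and a red line at 10702 marks the restart, where the median steps from below -1 to above 0.

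The largest rises shared a fixed form of FA4 value. Of 1749 distinct peaks that were at least 16-fold higher, 1450 (82.9%) had an FA4 log2 fold within 0.0002 of 0.3346 minus the log2 of a whole number from 1 to 400. Of 2848 peaks that were higher by less than 16-fold, 9 (0.316%) did, as did 2 of 8774 lower peaks. A value well above 0.3346 cannot take this form. The median FA4 log2 fold of unshared peaks was 1.48 in the first of these classes and 5.97 in the second. Of the peaks at least 16-fold higher, 92.3% had FA4 values below 0. The low shares thus follow in part from the range of FA4 values, and the contrast does not set the rises apart. The constant 0.3346 was picked as the one, of those tried, that matched the largest share of FA4 values below 0. That share was 71.7% (1409 of 1966), and the median share over all constants tried was 0.203%. The FA4 folds that matched thus equal 1 constant divided by whole numbers. In FA0 the peaks that were at least 16-fold higher did not stand apart. Their median log2 fold was 3.44, against 3.26 in the rest of the second series. The order of size among these rises, many of which are named below, rests on such FA4 values. What produced these values was not tested.

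The 8 largest rises in genes of at least 5 FPKM, a group picked by size alone, were all in the second series. All 8 had FA4 values of the fixed form described above, so the size of these rises rests on that form. The largest was in Ddx51, a DEAD-box helicase gene on chromosome 5 (110653451 to 110660496, plus strand, GRCm38), where the log2 fold went from -3.75 in FA4 to 7.08 in FA0. Elp3, which encodes the catalytic subunit of Elongator (chromosome 14, 65530449 to 65593075, minus strand), had a peak that went from -2.84 to 7.84. In Plekhg5, a gene for a guanine nucleotide exchange factor, the peak nearest the gene start of 4 in its series went from -5.42 to 4.93. The other 5 were in Kansl3, a subunit of the NSL acetyltransferase complex, Stk16, a membrane-associated kinase, Cherp, a nuclear RNA-processing protein, Pex5, the peroxisomal import receptor, and Slc25a4, the mitochondrial ADP/ATP carrier, with rises of 9.95 to 10.19. RNA of these 8 genes differed by less than 2-fold. The log2 ratio ran from -0.29 in Pex5 (23.5 FPKM in FA4 and 19 in FA0) to 0.39 in Cherp (38.9 and 51.4), and Ddx51 stood at 11.6 in each.

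The 8 largest falls came from both series. Rnf168, which encodes a ubiquitin ligase of the response to DNA breaks (chromosome 16, 32277459 to 32301434, plus strand), had a peak at 4.71 in FA4 and -4.37 in FA0, a fall of 9.09. It was 1 of 7 peaks in that gene. The Mbd2 peak, in a gene for a reader of methylated DNA, went from 11.76 to 4.93. In Pfkfb3, an activator of glycolysis through fructose-2,6-bisphosphate, a peak went from 11.10 to 4.15. Peaks of Pdzd2, Rgs12, Snd1, Itgb3bp and Zscan20 had differences of -7.25 to -6.42. RNA of Rnf168 was 11.9 FPKM in FA4 and 11.2 in FA0, and that of Mbd2 6.56 and 6.04.

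The 5 strongest peaks, by the mean of both log2 folds, were all lower in FA0 and all in the first series. They lay in Phf3, Slc52a3, Hlcs, Fgfr1 and Trim2. Slc52a3 encodes a riboflavin transporter and Hlcs the enzyme that attaches biotin to carboxylases. RNA was low for Slc52a3, at 1.28 FPKM in FA4 and 0.63 in FA0, and for Hlcs, at 3.46 and 6.02. For the other genes it was 8.31 to 75.8 FPKM. The Phf3 peak was at 14.68 in FA4 and 12.66 in FA0, and the Fgfr1 peak, in a fibroblast growth factor receptor gene, at 13.25 and 12.15. The 8 genes with the most peaks mainly reflected overlap of gene models. Galnt2l led with 131 entries, each of them shared with other genes, and 6 others were genes of the protocadherin gamma cluster on chromosome 18, with 29 to 43 entries. Fgfr2 had 32, of which 31 were shared.

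Directions were much alike along the genome. By chromosome, the median difference of unshared peaks ran from -0.85 on chromosomes 2 and 16 to -0.55 on chromosome 17. The share of higher peaks ran from 17.8% on chromosome 2 to 27.4% on chromosome 17. No chromosome had a median above 0.

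Position along the gene mattered within the second series. Coordinates of peaks are not in the table, but the order of peaks along a gene could be read from their numbers: in 699 of 699 pairs that shared peaks allowed to check, the order was that of the genome. Over 2309 genes with at least 2 unshared peaks in the second series, the peak nearest the gene start had a median difference of 1.20 and the one nearest the end 0.33. The first was above the last in 61.2% of genes (95% exact binomial interval 59.1 to 63.1). A rise of at least 16-fold was seen in 22.7% of first and 12.3% of last peaks. Both strands gave the same direction, with 62.9% of genes on the plus strand and 59.3% on the minus strand. In the first series the medians were -1.30 and -1.41 over 2379 genes, and the first peak was above the last in 53.9%.

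**Figure D3:**
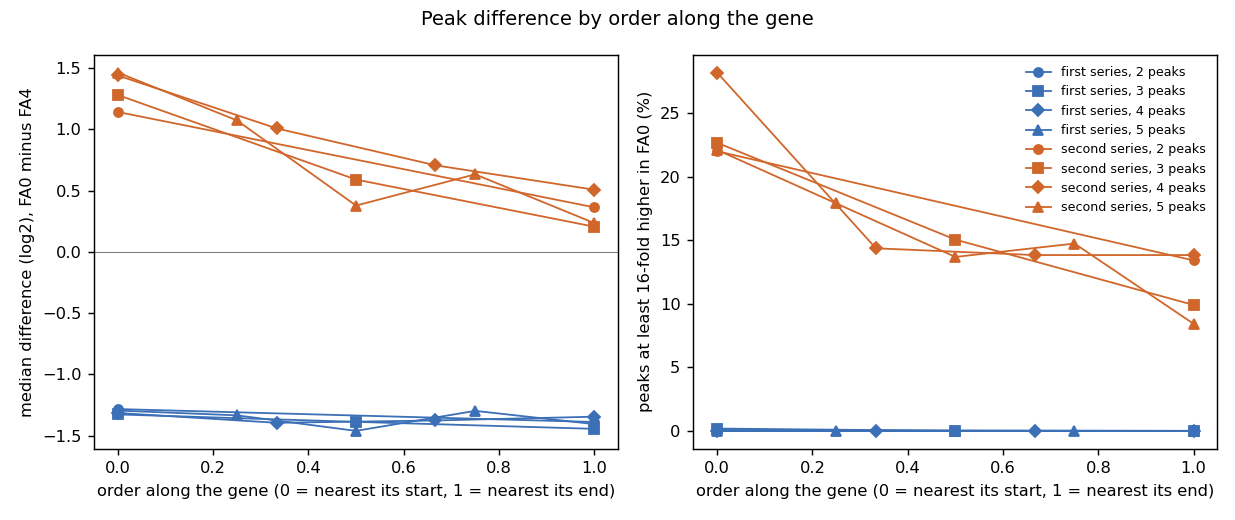
The horizontal axis is the order of a peak among its gene's peaks of the same series, from the gene start (0) to the gene end (1). The vertical axes give the median difference in log2 fold (left) and the percentage of peaks at least 16-fold higher in FA0 (right) for genes with 2, 3, 4 or 5 peaks. In the second series both fall from the start towards the end, from 28.2% to 13.8% of peaks in genes with 4 peaks.

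Higher peaks were more frequent in genes with more RNA. At a mean of 1 to 5 FPKM 14.0% of entries were higher and 51.8% lower, and above 100 FPKM 38.7% were higher and 22.5% lower. The share of peaks from the second series rose along with this, from 44.9% to 65.0%. Within the second series alone the share of higher entries still went from 28.1% to 57.3%. Within the first series it was between 0.694% and 3.94% in every class of RNA level. The median FA4 log2 fold went from 5.95 at 1 to 5 FPKM to 2.61 above 100 FPKM, and the FA0 fold from 4.77 to 2.86. The peak value and the RNA level of a gene were thus not independent, which bears on every gene group below.

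The genes of higher and lower peaks differed little in sequence. The median transcript length was 4493 bases for genes of lower peaks and 3856 for genes of peaks that were at least 16-fold higher, against 2680 over 21901 protein-coding genes. Median GC content was 49.1% for lower peaks and 51.9% for the largest rises. The letters GGACT, searched on the sense strand of the transcript, are a frequent form of the motif at which the Mettl3 complex methylates adenines. They occurred in the transcripts of 97.7% and 95.5% of the peaks of these classes, against 87.6% of the transcripts of all protein-coding genes. Per kilobase the medians were 1.08 and 1.10, against 1.01. The letters were counted over whole transcripts and not within peaks. Values of the peak classes count a gene once for each of its unshared peaks. Those over all protein-coding genes count each gene once, so the measures are unlike.

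Few RNA levels changed, and their direction was only weakly related to that of the peaks. Of 6771 genes at a mean of at least 5 FPKM, 43 (0.635%) were at least 2-fold higher in FA0 and 41 (0.606%) at least 2-fold lower, on the scale of log2(FPKM + 1). The median log2 ratio was 0.00, and 90% of genes lay between -0.49 and 0.51. Among entries with a higher peak, 50.8% were in genes with more RNA in FA0 (95% exact binomial interval 49.3 to 52.3). Among entries with a lower peak, it was 52.4% (51.3 to 53.6), and among those within 2-fold 48.4% (47.2 to 49.7). In the first series these shares were 43.0% for higher peaks, 51.5% for lower peaks and 44.8% within 2-fold. In the second series they were 51.0%, 58.3% and 51.1%. Lower peaks thus went slightly more often with more RNA in FA0 in each series. Across 18115 entries the Spearman correlation of peak difference and RNA ratio was -0.03, over values that share genes and libraries. It was -0.09 in the first series and -0.05 in the second. Peak folds taken relative to these RNA libraries would not be independent of them, and the reference of the folds is not stated.

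**Figure D4:**
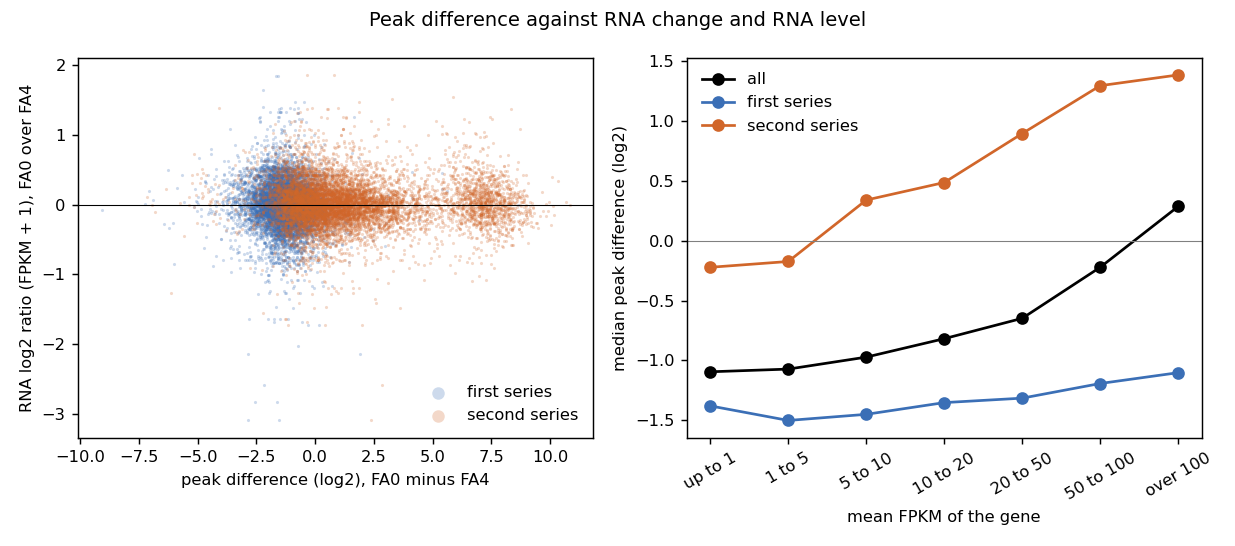
On the left, each point is 1 entry of a gene with at least 5 FPKM, with the peak difference (log2, FA0 minus FA4) on the horizontal axis and the log2 RNA ratio on the vertical axis. On the right, the median peak difference is given by the mean FPKM of the gene for all entries and for each series; it rises from -1.07 at 1 to 5 FPKM to 0.28 above 100 FPKM.

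Among genes with a peak past 2-fold, the largest RNA changes went with peaks of either direction. Phc2, a Polycomb gene, went from 1.85 FPKM in FA4 to 9.14 in FA0, and both of its peaks were lower, with differences of -1.58 and -1.69. Trappc9, a vesicle tethering subunit, went from 3.79 to 12.9 FPKM, and its only peak was higher by 5.86. RNA and peak thus moved oppositely in the first of these genes and together in the second. Both Phc2 peaks are in the first series, where 68.3% of entries were lower. The Trappc9 peak is in the second, where 42.6% were higher. Rap1gap, which switches off Rap1, went from 12 to 0.53 FPKM, with peak differences of -1.54, -2.84 and 2.39. Xrcc2, a homologous recombination gene, went from 10.8 to 0.67 FPKM. Both of its peaks, in the first series, were lower, with differences of -1.62 and -2.58. Zfp623, a zinc finger gene, rose from 3.93 to 12.6 FPKM, with 1 of 3 peaks higher.

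For other genes the count column disagreed with the FPKM column. Slc15a4, a lysosomal histidine and peptide transporter, went from 82.4 to 12.9 FPKM, but its depth-scaled count ratio was 0.72 (95% interval 0.59 to 0.88, counting error only). Herc3, a HECT ubiquitin ligase gene, went from 32.6 to 6.63 FPKM at a count ratio of 1.03 (0.80 to 1.32). The change in these genes was therefore smaller by counts. Erlec1 and Crtac1 rose by FPKM, with count ratios of 1.46 (1.00 to 2.17) and 1.78 (1.27 to 2.52). Plcxd1 fell by FPKM, with a count ratio of 0.57 (0.36 to 0.91).

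Genes of folate and one-carbon metabolism had 44 entries in 22 of 29 genes. Of these, 13 were higher (29.5%) and 13 lower (29.5%), against 21.4% and 42.6% of all entries. Their median difference was -0.31, against -0.76 over all entries, and 63.6% of them were in the second series, against 48.7% of all. Mthfd1, the cytosolic trifunctional enzyme that interconverts folate-bound one-carbon units, held 2 peaks: the one nearer the start went from 2.33 in FA4 to 3.91 in FA0, and the other from -6.92 to 2.90. Its RNA stood at 89.8 FPKM in FA4 and 90.1 in FA0. The peak of Folr1, a folate receptor, is shared with a neighbouring gene and went from -2.67 to 4.60. Mtr, methionine synthase, had a peak at -1.22 in FA4 and 2.71 in FA0, and Amt of the glycine cleavage system at -0.09 and 3.36. These 5 peaks are in the second series, and the Mtr peak of the first series differed by -1.30. The 13 lower entries had differences of -3.41 to -1.10. The lowest was a peak of Aldh1l2, a mitochondrial enzyme that oxidises formyl folate, at 8.33 in FA4 and 4.92 in FA0.

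Shmt2, the mitochondrial serine hydroxymethyltransferase, had 1 peak of each direction: -1.38 in the first series and 2.79 in the second. In the methionine cycle list 5 of 19 entries were higher (26.3%) and 9 lower (47.4%), against 21.4% and 42.6% of all entries. Srm, spermidine synthase, and Ahcyl2 had the highest rises, of 7.88 and 7.37, while a peak of Cbs, which starts transsulfuration, fell by 2.18.

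Of the lists with at least 20 entries, the 3 with the highest medians were those of purine and pyrimidine synthesis, DNA replication and repair, and hypoxia and glycolysis. Of all entries, 21.4% were higher and 42.6% lower. Purine and pyrimidine synthesis had 17 of 40 entries higher (42.5%) and 10 lower (25%), with a median of -0.01. DNA replication and repair had 36 of 101 higher (35.6%) and 35 lower (34.7%), with a median of 0.03. Hypoxia and glycolysis had 23 of 69 higher (33.3%) and 21 lower (30.4%), with a median of -0.11. Between 61.4% and 67.5% of the entries of these 3 lists were in the second series, and the median RNA level of their entries was 33.2 to 53.2 FPKM, against 14.8 over all. The part of RNA level and series in these medians was not tested. Within the second series their medians were 1.19 to 1.42, against 0.58 over that series. Other lists lay in the same range there, such as H3K9 methylation and heterochromatin at 1.32 and DNA methylation at 1.23. Some were lower, such as naive pluripotency at 0.21.

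Peaks of 1 gene differed widely in these lists and in that of serine synthesis. In Cad, the enzyme that starts pyrimidine synthesis, the 4 differences were -0.21, 6.47, 1.42 and -0.11. Paics, of the purine pathway, had 1 peak, at -4.71 in FA4 and 2.88 in FA0. In Mcm4, a subunit of the replicative helicase, a peak of the first series fell by 1.79 and those of the second differed by 8.70 and 0.69. Pold1, a replicative DNA polymerase, had 6 peaks in the second series, all with differences above 0. The peak nearest the start rose by 8.06, from -4.19 in FA4 to 3.87 in FA0. Along the rest of the gene the differences were 0.75 to 1.92. In Pole, the catalytic subunit of another replicative polymerase, 2 of 4 peaks rose by 7.73 and 7.92. The glucose transporter gene Slc2a1 had 2 lower and 2 higher peaks, from -1.89 to 8.39. Phgdh, the first enzyme of serine synthesis, had 2 higher peaks, by 7.67 near the start and 1.54 near the end.

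Naive pluripotency genes lay at the lower end. They had 80 entries in 27 of 29 genes, with a median of -1.07. Of these, 8 were higher (10%) and 42 lower (52.5%), against 21.4% and 42.6% of all entries. Of the 80 entries 33.8% were in the second series, against 48.7% of all, and their median RNA level was 47.1 FPKM. In the first series their median, -1.30, was near that of all entries, -1.36; in the second it was 0.21, against 0.58. After centring, 14 entries were higher and 14 lower.

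Individual pluripotency genes had peaks of either sort. Nanog held 2 peaks, which went from 2.69 to 1.25 and from 5.16 to 3.37. Klf4 had 5 peaks, all lower, with differences of -2.23 to -1.07, and 1 of these was in the second series. Esrrb had 3 lower peaks in the first series and 1 higher by 1.64 in the second. Tbx3 had 5 lower peaks of 8 and 1 higher, which went from -2.47 to 4.49. The 2 Sox2 peaks differed by -0.61 and -1.55. Pou5f1 had a peak with nearly equal values of 3.33 and 3.29 in the first series and one that went from -0.68 to 2.27 in the second. After centring, 2 of the 5 Klf4 peaks and 1 of the 2 Nanog peaks were still lower by 2-fold, and none of those of Esrrb, Tbx3 and Sox2. RNA of these 6 genes did not reach a 2-fold difference: Nanog stood at 156 FPKM in FA4 and 208 in FA0, and Pou5f1 at 456 and 405.

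Genes linked to neural tube defects had 20 of 107 entries higher (18.7%) and 58 lower (54.2%), against 21.4% and 42.6% of all entries. Their median was -1.06, and after centring 24 entries were higher and 22 lower. In the first series 82.8% of their 58 entries were lower, against 68.3% of that series, and the shares for imprinted genes (85.2% of 27) and the methionine cycle (80% of 10) were close to it. The lowest differences were those of 2 peaks in Grhl2, a transcription factor of surface ectoderm, at -3.74 and -3.50. Scrib and Axin1, of planar cell polarity and Wnt signalling, and Tulp3, a ciliary trafficking gene, had the highest rises, of 7.66 to 8.68. Cholesterol synthesis genes had 4 of 33 entries higher and 15 lower (45.5%), against 42.6% of all entries, with a median of -0.94. Imprinted genes had 10 of 47 higher and 23 lower (48.9%), with a median of -0.90. Peaks of Igf2r, Peg3 and Gnas rose by 8.71, 6.37 and 6.27, and one of Ube3a fell by 2.43.

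**Figure D5:**
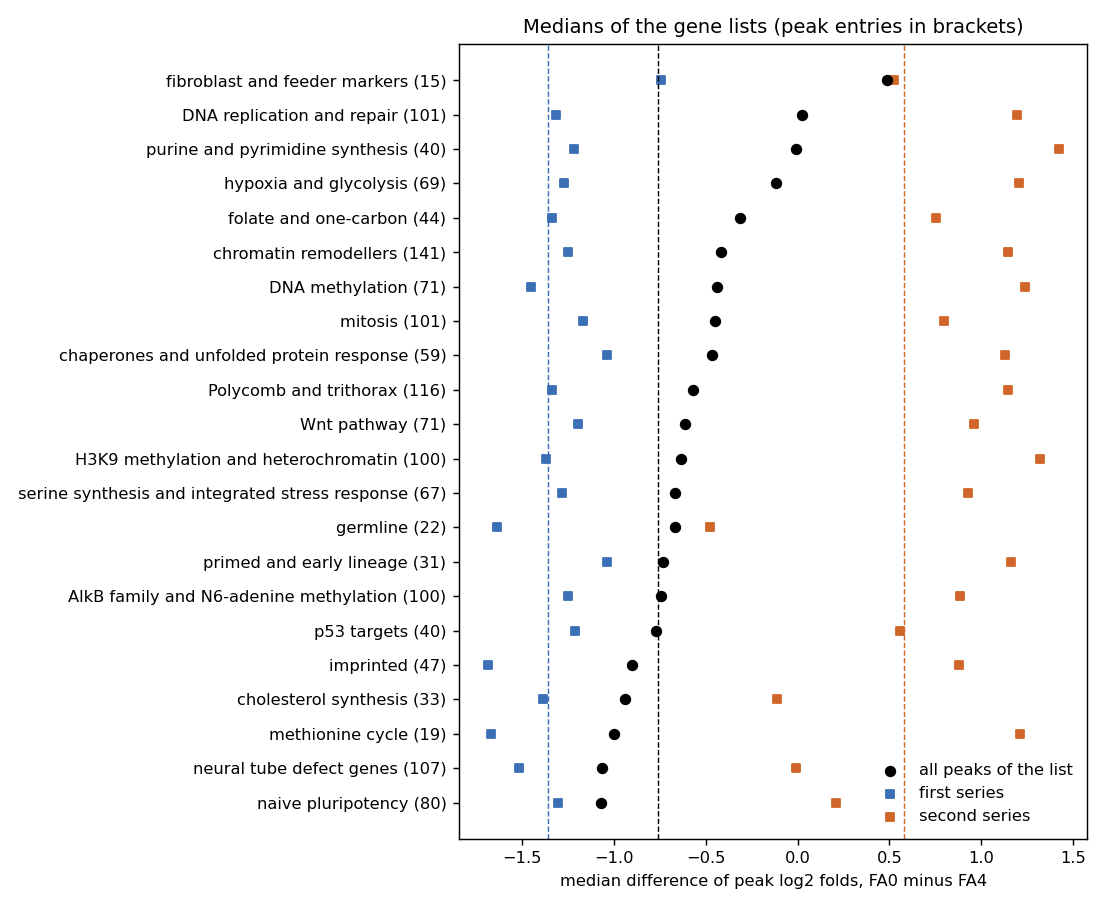
The median difference of peak log2 folds, FA0 minus FA4, is shown for each gene list with at least 10 entries, over all its entries (black) and over each series of peak numbers (coloured), with dashed lines at the medians over all genes. List medians over all entries spread from -1.07 to 0.49, and every list has its first-series median below its second-series median.

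The list for H3K9 methylation and heterochromatin had 27 of 100 entries higher and 44 lower, against 21.4% and 42.6% of all entries. In Ehmt2 (G9a), an H3K9 methyltransferase, all 4 peaks were higher: from the start to the end of the gene, they went from -2.47 to 4.00, from 1.47 to 4.65, from -5.50 to 2.82 and from -1.92 to 2.54. Its RNA was 39.0 FPKM in FA4 and 33.5 in FA0. Of the 5 peaks of Ehmt1, its partner, the only one in the second series rose by 8.30, and the others are not reported here. Atf7ip, a cofactor of Setdb1, showed the opposite of Ehmt2, with all 7 peaks lower, at differences of -2.83 to -1.15. Of these, 2 were in the second series. After centring, 2 of the 7 were still lower by 2-fold. Its RNA was 54.1 FPKM in FA4 and 16.7 in FA0, though the count ratio was 0.83 (95% interval 0.73 to 0.95, counting error only). The lowest differences of the list were those of Wiz, at -5.68 and -3.30 in the first series and -4.65 in the second.

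Setdb1, the H3K9 methyltransferase that silences retroelements, had 3 lower peaks in the first series, with differences of -2.33 to -1.60. Its peak in the second series went from -3.37 to 3.85. Its RNA was 25.7 FPKM in FA4 and 34.0 in FA0. Trim28, the scaffold that recruits Setdb1, had 5 peaks, 3 of them shared: 2 were lower, with differences of -1.84 and -1.91, and 1 was higher, at 1.70. Trim28 RNA stood at 837 and 812 FPKM.

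DNA methylation genes had 23 of 71 entries higher (32.4%) and 26 lower (36.6%), against 21.4% and 42.6% of all entries. Their median was -0.44. Dnmt1, the maintenance methyltransferase, had 7 peaks, all in the second series and all above 0 in difference: 4 were higher, by 2.06 to 7.78, and the other 3 differed by 0.42 to 0.73. Dnmt3a, a de novo methyltransferase, had 4 higher peaks in the second series, by 1.20 to 7.22, and 1 in the first at -0.79. In Dnmt3b 2 of 3 peaks were higher, by 4.51 and 4.85. For the 3 enzymes the peaks thus pointed up wherever they passed 2-fold, in the series where 42.6% of all entries did so. Other genes of the list had large falls. Those were peaks of Mbd2 at -6.83 in the second series, and of Tet1 at -3.87 and -3.21 and Zbtb38 at -3.06 in the first. RNA of Dnmt1, Dnmt3a and Dnmt3b differed by less than 2-fold, with 63.1 FPKM in FA4 and 62.1 in FA0 for Dnmt1.

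The list of AlkB dioxygenases and N6-adenine methylation lay at the general level, with a median of -0.74. Of its 100 entries 23 were higher and 43 lower, against 21.4% and 42.6% of all entries. Alkbh1, a demethylase of DNA and RNA, had 2 peaks within 2-fold, which went from 6.22 to 5.49 and from 1.93 to 2.35. Fto, an RNA demethylase, had 2 lower peaks, with differences of -2.21 and -1.76, and 1 at 0.51. Peaks of Virma and Zc3h13, subunits of the writer complex, rose by 9.13 and 7.96. Igf2bp1, a reader of methylated RNA, had 4 of 8 peaks higher and 1 lower, with rises up to 7.90.

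Against 21.4% of all entries higher and 42.6% lower, chromatin remodellers had 39 of 141 entries higher and 49 lower, with a median of -0.42, Polycomb and trithorax genes 34 of 116 and 42, and mitosis genes 25 of 101 and 32. All 3 lists had a larger share of higher and a smaller share of lower entries than the whole table. So did several others, such as DNA methylation, and chaperones and the unfolded protein response. The median RNA level of the entries of these 3 lists was 30.5 to 47.1 FPKM, against 14.8 over all. The part of RNA level in the shares was not tested. In Smarca4, the Brg1 ATPase, all 4 peaks were higher, by 1.49 to 8.24. Over all genes, 1505 had at least 4 unshared peaks, and in 9 of these all peaks were higher and in 41 all were lower. Among the 9 were Lmnb2, Myh9, Apoe, Ehmt2, Pnn, Smarca4 and Srrt, named after their values were seen, and all their peaks are in the second series. In Lmnb2, a nuclear lamin gene, the 5 rises ran from 1.19 to 6.78. After centring, all peaks were higher in 27 of the 1505 genes and lower in 4. Atf7ip was the only one of 281 genes with at least 7 unshared peaks in which all were lower, and after centring there was none.

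The remaining lists are given by their counts, against 21.4% of all entries higher and 42.6% lower. Serine synthesis and the integrated stress response had 17 of 67 entries higher and 24 lower, chaperones and the unfolded protein response 16 of 59 and 18, the Wnt pathway 15 of 71 and 26, and p53 targets 9 of 40 and 18. Early lineage genes had 8 of 31 higher and 11 lower, and germline genes 4 of 22 and 9. Fibroblast markers, with 15 entries in 6 genes, had 5 higher and 3 lower and the highest median of the lists, 0.49, and 73.3% of their entries were in the second series. Of genes of the state that resembles the 2-cell embryo, 1 of 19 was listed, Zfp809, with 1 of 3 peaks lower. Of 22 lists, leaving out that one, 4 had more higher than lower entries, and 19 had so after centring.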

How the data were processed

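The authors deposited 1 table for mESC with estimated counts, FPKM and, for each peak, a log2 fold in each library, per the file headers. RNA columns were assigned to FA4 (normal folate) and FA0 (no folate) by their headings. The authors' log2 ratio of RNA, p-values and FDR were not used. The tools named in the submitters' processing notes are HTSeq 0.9.1, HISAT2 2.0.4, edgeR and cutadapt 1.9.3, and mm10 is the build. No peak caller, reference of the folds or role of a tool is stated there. Differences of the deposited log2 folds (FA0 minus FA4) were taken per entry, with at least 2-fold as the threshold. RNA ratios used log2(FPKM + 1) at a mean of at least 5 FPKM. Count ratios were scaled by a depth ratio of 1.33. Shares carry exact binomial intervals (95%), which cover counting error only. Steps were tested on simulated data. Python 3.11.15, pandas 2.3.3, numpy 2.4.6, scipy 1.17.1 and matplotlib 3.10.9 were used. Genes were matched to GENCODE M21 (GRCm38) by gene ID, 9210 of 9217. Transcript lengths and letters came from its transcripts.

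Named are the 8 largest rises and 8 largest falls of peaks in genes of at least 5 FPKM, the 5 strongest peaks, the 8 genes with most peaks, and the 5 largest RNA rises and falls among genes with a peak past 2-fold. Up to 4 genes a list with the largest peak ratio and 13 set genes, of which 10 are listed, were added, leaving out predicted genes. Some genes that this rule covers are not reported here. Members and lists were chosen with earlier results of these data known. Genes shown with all their peaks were chosen after their values were seen. Thresholds, filters, centring, distinct peaks and other scalings of RNA were tried as alternatives.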

Additional observations from a re-analysis of the deposited data

How the results depend on the processing

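No paired analysis was possible because each group has 1 library and no result comes from a test. Of the peaks, 3291 were higher and 2977 lower at a fold threshold of 4, 595 were higher and 7308 lower among peaks at or above the median strength, which as the mean of both folds leaves out peaks with very low FA4 values, and 4155 were lower after centring. Chosen after seeing the data, the first series of peak numbers alone gave 166 higher and the second series alone 1741 lower peaks. Counts of higher and lower peaks stayed within 1.5 times of 4939 and 9815 with each peak counted once, with a threshold of 1.5, in genes of at least 5 FPKM and in peaks of 1 gene. Of 137 named peaks, centring took 9 under the threshold and 3 past it. Genes higher and lower by RNA were 7 and 15 with a pseudocount of 5, 95 and 82 at a minimum of 1 FPKM, 12 and 22 at 10 FPKM, 104 and 86 with no minimum, and 221 and 220 at 1.5-fold. The share of genes with more RNA in FA0 was 48.0% for higher peaks when the strongest peak of each gene was used and 43.0% in the first series. For lower peaks it was 53.9% by the mean over a gene's peaks and 58.3% in the second series. The log2 RNA ratio of Herc3 turned from -2.14 to 0.040 by counts. The cause of these shifts was not tested. Motif shares in peaks and the position of peaks by annotation were not run, since the table gives no coordinates. With 1 library in each group, a difference between libraries and one between media cannot be told apart.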
